A study of Homo sapiens with 12 samples.

Results

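Markers of the mesenchymal and of the epithelial state were followed in MDA-MB-231-ERβ cells that had received E2, TNFα or both. They were picked by symbol, as 10 genes in all, namely ZEB1, SNAI1, SNAI2, TWIST1, CDH2, CDH11, FN1, VIM, EPCAM and AXL. Of the 10, 8 had a row among the 12451 gene entries of the count table, TWIST1 and CDH11 did not, and all 8 were among the 11303 genes tested. MDA-MB-231 is a triple negative breast cancer (TNBC) cell line with a mesenchymal appearance, here engineered to express full length human ERβ, an estrogen receptor, once doxycycline (dox) is given. Triplicate dishes in charcoal-stripped serum, all with dox, received ethanol vehicle or 1 nM E2, an estrogen that activates ERβ, for 5 days. In some dishes TNFα, a cytokine that activates NFκB, was added at 20 ng/ml for the final 3 h, which gave 4 groups of 3 libraries (vehicle, TNFα, E2 and E2+ TNFα). Dox was shared by all groups, although for E2+ TNFα it is named in the described treatment and not in the labels. The replicates are dishes of a single cell line, so that p-values measure the spread between such dishes.

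In the epithelial state, cells are held together by E-cadherin junctions and tight junctions and carry surface proteins such as EPCAM. In epithelial-mesenchymal transition (EMT), transcription factors of the SNAIL, ZEB and TWIST families repress these genes, and cells gain N-cadherin (CDH2), the intermediate filament protein vimentin (VIM) and a matrix rich in fibronectin (FN1). Carcinoma cells can hold genes of both states together, and the receptor tyrosine kinase AXL is often high in cells of mesenchymal appearance.

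The vehicle libraries stood apart from the 9 others. The thresholds of the study require a log2 difference of 1.5 or more in size, with p below 0.05 and an adjusted p of no more than 0.1. Past these thresholds were 30.5% of all genes tested for E2, 26.7% for TNFα and 25.1% for E2+ TNFα, each relative to vehicle. The share was 5.56% in E2+ TNFα relative to TNFα and 0.407% in E2+ TNFα relative to E2. The differences from vehicle also moved with base composition. In the 2261 genes with the lowest exon GC content (32.5% to 42.0%), the median log2 fold change in E2 relative to vehicle was -1.91, and in the 2261 with the highest (59.0% to 76.6%) it was 0.76, whereas in E2+ TNFα relative to TNFα the medians were 0.28 and -0.08. If the vehicle libraries formed a batch of their own, that batch and the vehicle condition cannot be told apart. Libraries held 7652016 to 39943664 assigned reads, and the 3 shallowest were those of the E2 group. Of 10 luminal breast markers, 4 had a row, and their summed level was 374 to 440.4 CPM (read counts relative to TMM-scaled library size) in vehicle, 375 to 439 in TNFα, 2130.2 to 3222 in E2 and 2041 to 2548 in E2+ TNFα, of which the keratin KRT19 gave 283 ± 29.8, 270.0 ± 24.5, 2593 ± 544 and 2109 ± 262 (SD, n = 3). The other markers of this list had a lower mean in E2 than in vehicle, with GATA3 at 4.68 against 7.72 CPM, ERBB3 at 7.55 against 9.22 and ERBB2 at 93.7 against 99.0. Of 7 leukocyte markers, 3 had a row (76.4 to 108 CPM summed, mostly CD68), and of 5 endothelial markers 1 did (KDR, 0.208 to 1.67 CPM). ESR2, the gene of ERβ, was at 456 to 486 CPM in vehicle, 228 to 281 in TNFα, 292 to 321 in E2 and 404 to 507 in E2+ TNFα. The part of these values in the results was not tested.

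Per exon length, the 8 markers fell into abundant and scarce genes. VIM (482 ± 10.5 RPKM in vehicle, SD, n = 3), AXL (244 ± 9.28) and FN1 (238 ± 14.0) were each far above the other markers in every library. SNAI2 (16.7 ± 1.19), SNAI1 (7.45 ± 0.334), EPCAM (5.77 ± 0.543), ZEB1 (3.09 ± 0.461) and CDH2 (1.56 ± 0.225) were each at 21.2 RPKM or less in every library. AXL and FN1 did not differ beyond their spread in vehicle, but in E2+ TNFα FN1 (564 ± 42.4 RPKM) had the highest mean, before VIM (463 ± 60.4), whose libraries overlapped with it, and AXL (316 ± 37.3), whose libraries lay below both. In TNFα FN1 came last of these (97.8 ± 2.88), below VIM and AXL (359.8 ± 31.1 and 368 ± 26.3), which overlapped. In each E2+ TNFα library, FN1 took 0.498% to 0.515% of all assigned reads, against 0.0863% to 0.0942% in TNFα libraries.

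**Figure D1:**
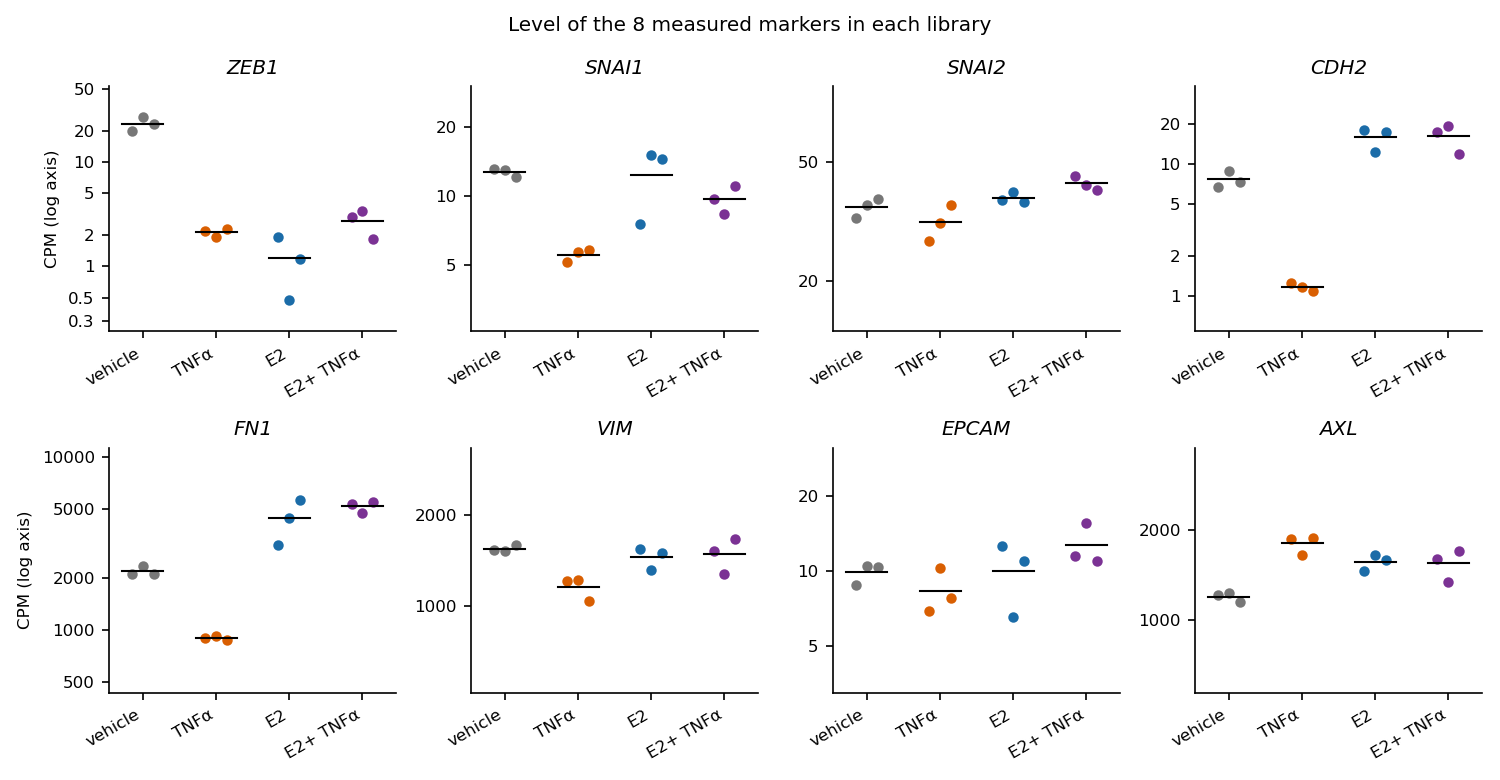
Level of each of the 8 measured markers (CPM, log axis) in the 3 libraries of vehicle, TNFα, E2 and E2+ TNFα, with points for libraries and a line for the mean of each group. ZEB1 was highest in the 3 vehicle libraries (19.8 to 26.8 CPM), CDH2 and FN1 were lowest in the 3 TNFα libraries, and VIM, SNAI2, EPCAM and AXL moved within narrow ranges.

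The main question was whether these genes differed with E2 in cells exposed to TNFα. E2+ TNFα relative to TNFα sets these groups against each other directly, although the vehicle libraries share in the scaling and in the estimate of the spread. All groups had dox, so the part of ERβ in the E2 difference was not tested. With E2 present, FN1 and CDH2 rose past the thresholds, and SNAI1, SNAI2, VIM and EPCAM rose by less than the size threshold, so that 6 of the 8 markers were higher and 0 lower at an adjusted p of at most 0.1 (edgeR's quasi-likelihood F test, Benjamini-Hochberg adjustment over all genes tested). ZEB1 and AXL did not pass. Over all genes tested, 24.4% were higher and 21.0% lower at that adjusted p, and past the thresholds 3.55% were higher and 2.01% lower, against 2 and 0 of the 8 markers. The median log2 fold change of the 8 was 0.52, and that of all genes 0.04. Without the vehicle libraries in the fit, the same 6 markers passed, with FN1 at 2.57 and CDH2 at 3.83.

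ZEB1 encodes a zinc finger factor that represses E-cadherin (chromosome 10, 31318783 to 31529814, plus strand, hg38). Its level was 19.8, 26.8 and 23.0 CPM in the vehicle, 2.17, 1.92 and 2.28 in the TNFα, 1.91, 0.478 and 1.17 in the E2, and 2.96, 3.35 and 1.82 in the E2+ TNFα libraries. All 9 treated libraries lay below all 3 vehicle libraries, and the 3 treated groups lay close together. The log2 fold change relative to vehicle was -4.14 (standard error 0.336, adjusted p = 4.12e-08 with edgeR) after E2, -3.45 (0.296, 1.14e-07) after TNFα and -3.11 (0.290, 2.39e-07) after E2+ TNFα. These 3 comparisons share the vehicle libraries. Genes were tested if they were at 1 RPKM or more in at least 3 libraries (the filter). ZEB1 met the filter only in the vehicle libraries, at 2.64 to 3.56 RPKM against 0.0635 to 0.446 in the treated libraries. Its direction in the 3 comparisons therefore followed from the filter. With no filter, ZEB1 also passed an adjusted p of 0.1 in all 3 with edgeR. In bulk RNA, fewer cells that express a gene and less RNA per cell cannot be told apart. ZEB1 was the marker with the lowest exon GC content (40.2%), and its difference depended on the treatment of base composition. When a loess trend on GC content and on gene length was taken out of every library, it was -2.05 for E2, -1.52 for TNFα and -1.43 for E2+ TNFα relative to vehicle, and with an unwanted factor from housekeeping genes removed (RUV) it was -2.02, -1.62 and -1.37, the last with an adjusted p of 0.129. The value was negative in each of these fits, whereas the size in E2+ TNFα was under the threshold in both.

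Among the treated groups, ZEB1 rested on few reads, with 28, 3 and 13 counts in the E2 libraries and 44 to 96 in the TNFα and E2+ TNFα libraries. E2+ TNFα exceeded TNFα by 0.34 (log2, standard error 0.297, adjusted p = 0.387 with edgeR), and E2 by 1.04 (0.350, adjusted p = 0.125 and unadjusted p = 0.00967). DESeq2 gave the difference from E2 an adjusted p of 0.053. The gene whose centred log2 level over the 12 libraries was closest to that of ZEB1 was THOC1, a subunit of the complex that links transcription to mRNA export, with a root mean square difference of 0.22 (log2). THOC1 averaged 24.0 CPM in vehicle, 1.79 in TNFα, 1.29 in E2 and 2.84 in E2+ TNFα, and its exon GC content was 39.4%, next to that of ZEB1. Exons of ZEB1 share 310 bases with the antisense transcript ZEB1-AS1, whose reads cannot be told apart from those of ZEB1 if strand was not used in counting.

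Promoter sequences from RefSeq (GRCh38.p14) were matched for 5 of the 8 markers, ZEB1, FN1, VIM, CDH2 and AXL. Those of SNAI1, SNAI2 and EPCAM were not used here. The 250 bases before each start were searched on both strands for CACCTG, the E-box bound by the SNAIL and ZEB factors, which lies in 17.5% of 35116 promoters, and for GGTCANNNTGACC, a full estrogen response element, which lies in 0.0399%. The estrogen response element was in none of the promoters of the 5 markers. The E-box was at 2 of the 7 starts of ZEB1 and 1 of the 2 of AXL, and at none of the 2 of CDH2 or the 1 each of FN1 and VIM. Bases upstream of 1 start each are shown for ZEB1, the marker with the largest fall, for AXL, which also holds an E-box, and for FN1, the abundant marker with the largest rise. Annotated exon bases of the same gene were left out, and those of other genes were not. The bases run 5′ to 3′, with the E-box in capitals.
ZEB1 (chr10:31318167-31318416, plus strand): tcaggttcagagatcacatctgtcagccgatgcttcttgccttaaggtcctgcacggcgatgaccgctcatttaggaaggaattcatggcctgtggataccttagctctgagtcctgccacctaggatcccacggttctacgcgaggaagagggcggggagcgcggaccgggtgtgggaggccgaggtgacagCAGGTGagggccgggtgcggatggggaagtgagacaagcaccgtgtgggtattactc
AXL (chr19:41218973-41219198, plus strand): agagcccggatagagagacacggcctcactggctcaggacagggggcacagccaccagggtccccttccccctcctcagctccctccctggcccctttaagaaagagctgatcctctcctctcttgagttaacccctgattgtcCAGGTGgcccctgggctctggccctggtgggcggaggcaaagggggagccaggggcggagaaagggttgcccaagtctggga
FN1 (chr2:215436168-215436318, minus strand): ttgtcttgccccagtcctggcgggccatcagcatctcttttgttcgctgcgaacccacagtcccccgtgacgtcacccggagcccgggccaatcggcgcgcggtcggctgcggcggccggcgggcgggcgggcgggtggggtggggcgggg
In ZEB1 the E-box begins 57 bases before the start and in AXL 106 bases before it, in both on the minus strand of the text shown, as CAGGTG. Such a match describes letters only.

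SNAI1 (chromosome 20, 49982976 to 49988886, plus strand) and SNAI2 (chromosome 8, 48917677 to 48921440, minus strand) encode the SNAIL repressors SNAIL and SLUG. SNAI1 was at 13.1, 13.0 and 12.1 CPM in the vehicle, 5.16, 5.70 and 5.81 in the TNFα, 7.58, 15.1 and 14.5 in the E2, and 9.75, 8.38 and 11.1 in the E2+ TNFα libraries. The TNFα libraries were the lowest and overlapped with no other group, and 1 E2 library lay well under its replicates. SNAI1 fell by 1.197 on the log2 scale in TNFα relative to vehicle (standard error 0.229, adjusted p = 0.000217 with edgeR), a fall that became 1.98 with GC and length trends removed and 2.20 with RUV, which are past the thresholds. In E2+ TNFα relative to TNFα it rose by 0.81 (0.231, adjusted p = 0.0125), to 1.75 times the level, and it stayed at an adjusted p of at most 0.0528 whichever single library was left out. All E2+ TNFα libraries lay below those of vehicle, with a log2 difference of -0.39 (0.224, adjusted p = 0.129). That difference passed an adjusted p of 0.1 with the trends removed, RUV, library size only or at least 10 counts in every library. It also passed in 3 of 12 fits without 1 library. E2 and vehicle overlapped, with a log2 difference of -0.06 (0.230, adjusted p = 0.832) that was 0.22 without the lowest E2 library, replicate 1, and -0.96 with the trends removed. The gene closest to SNAI1 in pattern was ADAMTS15, a secreted metalloprotease (root mean square difference 0.12 in log2).

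SNAI2 moved least among the transcription factors. Its level was 32.5, 35.8 and 37.5 CPM in the vehicle, 27.3, 31.2 and 36.0 in the TNFα, 37.4, 39.8 and 36.8 in the E2, and 44.7, 41.9 and 40.4 in the E2+ TNFα libraries. The E2+ TNFα libraries lay above all others, by a small margin. SNAI2 rose by 0.43 on the log2 scale in E2+ TNFα relative to TNFα (standard error 0.127, adjusted p = 0.0154 with edgeR) and by 0.26 relative to vehicle (0.126, adjusted p = 0.069). The latter call was lost in 6 of 12 fits without 1 library (any 1 of the vehicle libraries, TNFα replicate 2, E2 replicate 3 or E2+ TNFα replicate 1), with an adjusted p of up to 0.277. It was also lost with library size as the only scaling (0.811), with RUV (0.63) and with at least 10 counts in every library. The difference was -0.17 in TNFα (adjusted p = 0.239) and 0.10 in E2 (adjusted p = 0.464) relative to vehicle. Its exon GC content was 42.0%, and the removal of trends moved the differences from vehicle to 1.06 for TNFα, which turned its sign, to 1.32 for E2 and to 1.40 for E2+ TNFα, each with an adjusted p under 0.1. The closest gene in pattern was MFSD11, a transporter-like membrane protein (0.10).

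CDH2 (chromosome 18, 27932879 to 28177481, minus strand) encodes N-cadherin, the adhesion protein that mesenchymal cells carry in place of E-cadherin. It was at 6.73, 8.87 and 7.32 CPM in the vehicle, 1.25, 1.17 and 1.09 in the TNFα, 18.0, 12.3 and 17.3 in the E2, and 17.4, 19.5 and 11.9 in the E2+ TNFα libraries. The groups were ordered TNFα, vehicle and then E2 and E2+ TNFα, which overlapped each other and no other group. CDH2 rose in E2+ TNFα relative to TNFα by 3.78 on the log2 scale (standard error 0.253, adjusted p = 1.89e-08 with edgeR), to 13.8 times the level, the largest rise of the 8 markers in that comparison. It fell by 2.69 in TNFα relative to vehicle (0.248, adjusted p = 2.11e-07). It rose by 1.07 in E2 (0.219, adjusted p = 0.000373) and by 1.09 in E2+ TNFα (0.215, adjusted p = 0.000294) relative to vehicle. With RUV these rises were 2.44 and 2.18 and with GC and length trends removed 1.97 and 1.84, all past the thresholds, and the fall in TNFα was 1.56 and 1.85. Its counts were 21 to 38 in the TNFα libraries and 77 or more elsewhere. It shares 136 exon bases with an antisense transcript. The closest gene in pattern was MAOA, a monoamine oxidase (0.23), at a mean of 54.1 CPM in vehicle, 6.63 in TNFα, 78.7 in E2 and 83.3 in E2+ TNFα.

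FN1 (chromosome 2, 215360454 to 215436167, minus strand) encodes fibronectin, a major protein of the extracellular matrix. It was at 2117, 2334 and 2106 CPM in the vehicle, 897, 927 and 874 in the TNFα, 3109.8, 4453 and 5643 in the E2, and 5334, 4738 and 5471 in the E2+ TNFα libraries. The TNFα libraries were the lowest and close together, the vehicle libraries came next, and E2 and E2+ TNFα were the highest and overlapped. FN1 rose by 2.53 on the log2 scale in E2+ TNFα relative to TNFα (standard error 0.175, adjusted p = 2.70e-08 with edgeR), to 5.76 times the level, and the value was 2.49 to 2.57 under the 10 alternatives. It fell by 1.28 in TNFα relative to vehicle (0.168, adjusted p = 5.87e-06), or by 1.66 with RUV, which is past the thresholds. It rose by 1.01 in E2 (0.167, adjusted p = 5.19e-05) and by 1.25 in E2+ TNFα (0.168, adjusted p = 8.31e-06) relative to vehicle. With RUV the rise in E2 was 0.54 with an adjusted p of 0.384. Stretches of FN1 of 227 to 285 bases match other transcripts at 90.5% to 90.7% identity. The closest gene in pattern was ARMH4 (0.22), which was far less abundant, at a mean of 1.37 CPM in TNFα and 8.04 in E2+ TNFα.

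VIM (chromosome 10, 17227935 to 17237593, plus strand) was among the most abundant markers in all groups and varied little. Its level was 1531, 1524 and 1586 CPM in the vehicle, 1209, 1217 and 1039.95 in the TNFα, 1540.7, 1317 and 1495 in the E2, and 1518, 1280.2 and 1665 in the E2+ TNFα libraries. The TNFα libraries were the lowest, and the other groups overlapped. VIM fell by 0.42 on the log2 scale in TNFα relative to vehicle (standard error 0.122, adjusted p = 0.00522 with edgeR), or by 1.11 with GC and length trends removed, while with RUV the adjusted p was 0.205. It rose by 0.36 in E2+ TNFα relative to TNFα (0.122, adjusted p = 0.0287), to 1.29 times the level, and without TNFα replicate 3, the lowest library, the adjusted p was 0.126. Differences from vehicle were -0.09 in E2 (adjusted p = 0.498) and -0.06 in E2+ TNFα (adjusted p = 0.685), and with the trends removed they were -0.85 and -0.66. VIM shares 641 exon bases with VIM-AS1 and 342 with another antisense transcript. The closest gene in pattern was MAPKAP1, a subunit of the mTORC2 complex (0.087).

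EPCAM (chromosome 2, 47369148 to 47387028, plus strand) encodes an epithelial surface adhesion protein. It was at 8.83, 10.5 and 10.4 CPM in the vehicle, 6.90, 10.3 and 7.79 in the TNFα, 12.6, 6.53 and 11.01 in the E2, and 11.5, 15.6 and 10.9 in the E2+ TNFα libraries. E2+ TNFα lay above TNFα in all libraries, E2 spread over the range of the other groups, and the E2 library with the lowest value had 41 counts. EPCAM was higher in E2+ TNFα than in TNFα by 0.61 (log2, standard error 0.238, adjusted p = 0.0586 with edgeR), but the call was lost without TNFα replicate 1, TNFα replicate 3 or E2+ TNFα replicate 2, with an adjusted p of up to 0.226, and with library size as the only scaling (0.119). Relative to vehicle the log2 difference was 0.05 in E2 (adjusted p = 0.864), -0.25 in TNFα (adjusted p = 0.347) and 0.36 in E2+ TNFα (adjusted p = 0.176). With RUV these were 1.88, 1.28 and 1.84, all at an adjusted p under 0.1, which turned the sign for TNFα. A processed pseudogene matches 336 bases of EPCAM at 95.2% identity. The closest gene in pattern was B2M, the light chain of MHC class I (0.16).

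AXL (chromosome 19, 41219199 to 41261767, plus strand) encodes a receptor tyrosine kinase with the ligand GAS6. It was at 1212, 1234 and 1146 CPM in the vehicle, 1868, 1655 and 1886 in the TNFα, 1458, 1655 and 1591 in the E2, and 1605, 1344 and 1697 in the E2+ TNFα libraries. The vehicle libraries were the lowest and overlapped with no treated library, and the TNFα libraries were mostly the highest. AXL rose by 0.59 on the log2 scale in TNFα (standard error 0.116, adjusted p = 0.000276 with edgeR), by 0.39 in E2 (0.116, adjusted p = 0.00646) and by 0.37 in E2+ TNFα (0.116, adjusted p = 0.00903) relative to vehicle. The removal of trends gave 0.15, -0.06 and -0.01, and with RUV 0.09, -0.23 and -0.12, so that the direction turned in E2 and in E2+ TNFα. The difference between E2+ TNFα and TNFα was -0.22 (0.116, adjusted p = 0.152), with an adjusted p of 0.0501 with the trends removed and 0.0521 with RUV. A stretch of 243 bases of AXL matches another transcript at 90.1% identity, and 67 exon bases lie opposite a long non-coding RNA.

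**Figure D2:**
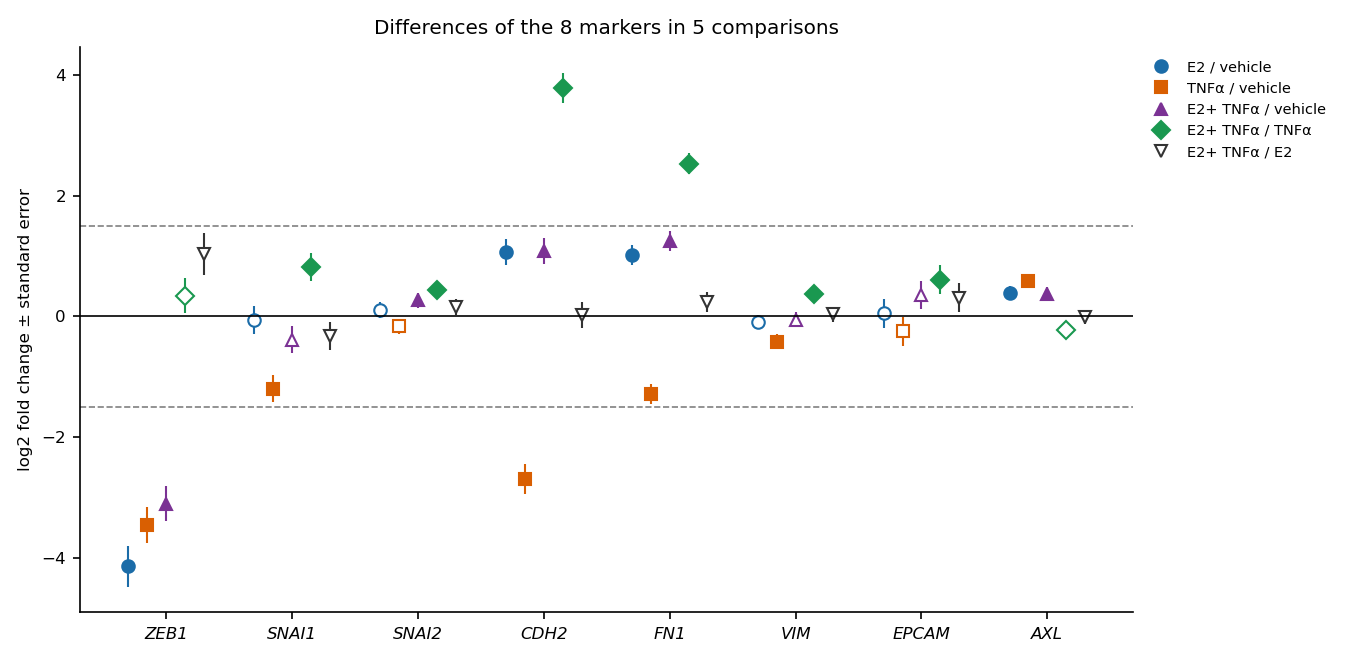
Log2 fold change with its standard error (edgeR) for each of the 8 markers in 5 comparisons, filled where the adjusted p is at most 0.1 and open otherwise, with dashed lines at 1.5 and -1.5. ZEB1 is far below 0 in the 3 comparisons with vehicle, CDH2 (3.78) and FN1 (2.53) are far above 0 in E2+ TNFα relative to TNFα, and none is filled in E2+ TNFα relative to E2.

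Counted by comparison, 1 of the 8 markers was past the thresholds in E2 relative to vehicle (ZEB1, lower), where 9.87% of all genes were higher and 20.6% lower. ZEB1 was tested through the vehicle libraries alone, so its direction in the 3 comparisons with vehicle followed from the filter. At an adjusted p of at most 0.1, 3 markers were higher (CDH2, FN1 and AXL) and 1 lower, beside 40.1% and 41.7% of all genes. In TNFα relative to vehicle, 2 markers (ZEB1 and CDH2) were lower past the thresholds, beside 6.64% of genes higher and 20.0% lower, and at the adjusted p alone 1 was higher and 5 lower, beside 40.3% and 41.6%. In E2+ TNFα relative to vehicle, 1 marker (ZEB1) was lower past the thresholds, beside 7.52% of genes higher and 17.6% lower, and at the adjusted p alone 4 were higher and 1 lower, beside 39.1% and 41.5%. These 3 comparisons share the vehicle libraries. In E2+ TNFα relative to E2, which asks what TNFα added to E2, 0 of the 8 markers passed either rule with edgeR, beside 6.0% of all genes at an adjusted p of at most 0.1. At an unadjusted p under 0.05 ZEB1 alone passed, and DESeq2 had 0 past the thresholds and 1 (ZEB1) at an adjusted p of at most 0.1. With edgeR, FN1 passed that adjusted p without E2 replicate 3 (0.0768), and ZEB1 without E2+ TNFα replicate 3 (0.0417). For FN1 the log2 difference was 0.24 (standard error 0.165) and for CDH2 0.02 (0.216).

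The difference that E2 made was also compared between cells with and without TNFα (interaction). At an adjusted p of at most 0.1, 5 of the 8 markers had a higher and 1 a lower E2 difference with TNFα than without it, beside 39.0% and 37.6% of all genes. The interaction was 4.49 on the log2 scale for ZEB1 (standard error 0.448, adjusted p = 1.19e-06 with edgeR), 2.72 for CDH2 (0.328, adjusted p = 5.32e-06) and 1.52 for FN1 (0.235, adjusted p = 4.80e-05). It was 0.87 for SNAI1 (adjusted p = 0.0266), 0.46 for VIM (adjusted p = 0.0268) and -0.61 for AXL (adjusted p = 0.00399). For ZEB1 this meant a fall of 4.14 with E2 alone and a difference of 0.34 with E2 on top of TNFα. ZEB1 was already low in the TNFα libraries (44 to 66 counts, against 822 to 1141 in vehicle), so a further fall had less room. The part of this in its interaction was not tested. Each interaction value uses the vehicle libraries, and the median interaction of all genes ranged from 2.18 in those of the lowest GC content, where ZEB1 lies, to -0.84 in those of the highest.

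Ratios taken within a library do not depend on its scaling. They can still carry the trend with base composition where the genes differ in exon GC content. That content was 44.6% for CDH2, 48.5% for CDH1, 49.7% for FN1, 54.2% for AXL and 56.4% for VIM. The part of the trend in the ratios was not tested. Per exon length, CDH2 exceeded CDH1, the E-cadherin gene, in the 3 vehicle libraries, by 2.30 to 3.14 times, and was below it in all 9 others, at 0.612 to 0.764 times in TNFα, 0.359 to 0.619 in E2 and 0.306 to 0.617 in E2+ TNFα. CDH1 itself was at 3.23, 3.61 and 2.58 CPM in the vehicle, 1.81, 2.12 and 1.77 in the TNFα, 32.2, 37.4 and 53.3 in the E2, and 43.8, 34.8 and 43.1 in the E2+ TNFα libraries. The ratio thus fell in TNFα with both cadherins low, and in E2 and E2+ TNFα with both higher and CDH1 more so. The ratio of FN1 to VIM was 0.464 to 0.535 in vehicle, 0.259 to 0.293 in TNFα, 0.705 to 1.32 in E2 and 1.15 to 1.29 in E2+ TNFα. That of AXL to VIM was 0.474 to 0.530 in vehicle, 0.891 to 1.19 in TNFα, 0.620 to 0.823 in E2 and 0.668 to 0.693 in E2+ TNFα. For each of these 3 ratios, vehicle overlapped with no other group. The ratio of EPCAM to VIM did overlap, at 0.0108 to 0.0129 in vehicle, 0.0107 to 0.0159 in TNFα, 0.00926 to 0.0153 in E2 and 0.0123 to 0.0228 in E2+ TNFα. CDH1 shares 212 exon bases with an antisense transcript.

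**Figure D3:**
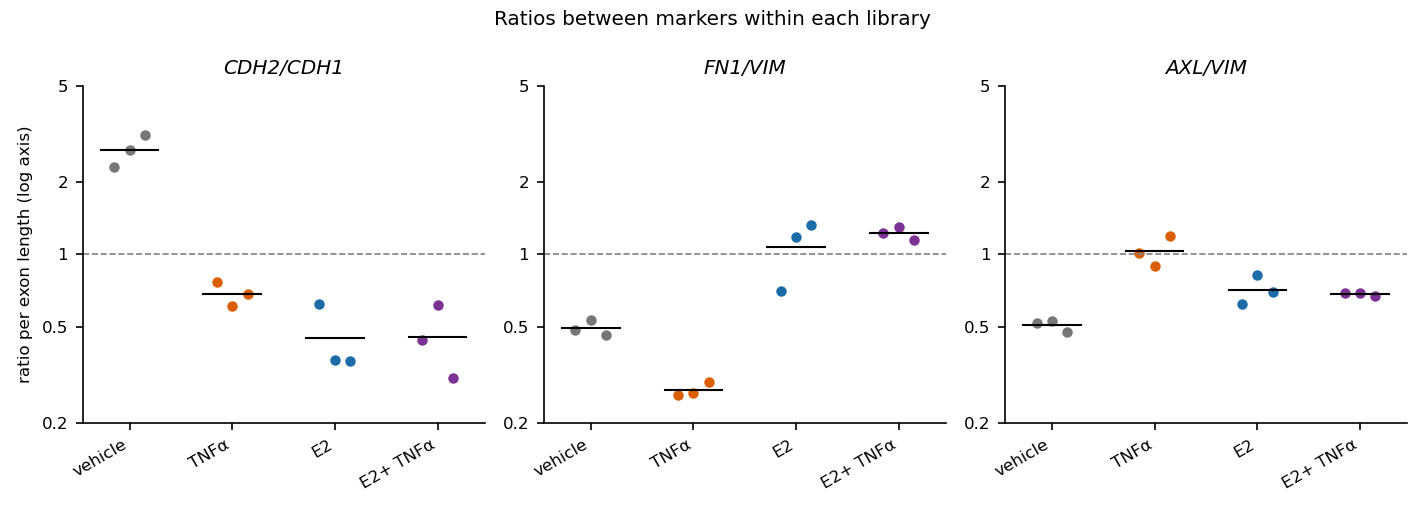
Ratio of CDH2 to CDH1, of FN1 to VIM and of AXL to VIM, per exon length, in each library (log axis), with a line at the mean of each group and a dashed line at 1. CDH2 exceeds CDH1 in the 3 vehicle libraries only, and FN1 relative to VIM is lowest in TNFα (0.259 to 0.293).

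The markers were set beside longer lists of the same kind. Some list genes met the filter only in the groups where they were high. For these, the direction of the difference from the other groups followed from the filter. Of 40 epithelial junction and surface genes, 32 were tested. Past the thresholds, 5 of them rose and 2 fell in E2+ TNFα relative to TNFα, beside 3.55% and 2.01% of all genes. At an adjusted p of at most 0.1 21 were higher and 6 lower, beside 24.4% and 21.0%, and 5 did not pass. The median log2 fold change of the 32 was 0.59, against 0.04 for all genes. The largest were CDH1 at 4.41 (standard error 0.227), CLDN1 at -3.37 (0.241), CDH3, which encodes P-cadherin, at 2.66 (0.158), and CLDN3 at -1.76 (0.402), which was -1.41 and under the size threshold without E2+ TNFα replicate 2. CDH1 met the filter only in the E2 and E2+ TNFα libraries, at 5.95 to 9.86 RPKM against 0.326 to 0.668 in the others. CLDN1 met it in none of the E2 and E2+ TNFα libraries, where it was at 0.661 RPKM or less. The claudins are proteins of tight junctions, and CLDN1 was at 21.9 ± 5.48 CPM in TNFα (SD, n = 3) and 2.12 ± 0.148 in E2+ TNFα. Relative to vehicle, E2 had 12 of the 32 higher and 2 lower past the thresholds, beside 9.87% and 20.6% of all genes. At the adjusted p alone 14 were higher and 10 lower, beside 40.1% and 41.7%. The median was 0.29, against -0.02 for all genes. With RUV 7 rose and 3 fell past the thresholds, beside 897 and 959 of all 11303 genes. The largest rises were those of CDH3 (4.30), CDH1 (3.70), AP1M2 (2.93), an adaptor of basolateral sorting, and CGN (2.91), which encodes cingulin of tight junctions. In TNFα relative to vehicle 6 rose and 2 fell, beside 6.64% and 20.0% of all genes. They were led by CLDN1 (2.21) and PKP3 (2.12), a plakophilin of desmosomes, with DSG2 (-1.99) and DSP (-1.96), also of desmosomes. With GC and length trends removed, however, 1 rose and 0 fell, beside 542 and 645 of all 11303 genes. With RUV 1 rose and 1 fell, beside 488 and 910. Of the 8 markers, EPCAM is on this list, and under the reported processing it was past the thresholds in none of these comparisons. With RUV it passed them in E2 relative to vehicle, at 1.88.

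Of 19 epithelial transcription and splicing factors, 8 were tested. ELF3, an ETS factor of epithelia, was at 4.32 ± 0.382 CPM in vehicle, 36.0 ± 2.38 in TNFα, 262 ± 20.2 in E2 and 388 ± 29.6 in E2+ TNFα. Its log2 fold change was 5.92 in E2 and 3.06 in TNFα relative to vehicle and 3.43 in E2+ TNFα relative to TNFα. OVOL2, a zinc finger repressor that opposes EMT, had 0 to 4 counts in vehicle, 15 to 18 in TNFα, 26 to 64 in E2 and 50 to 77 in E2+ TNFα libraries, and its log2 fold change in E2+ TNFα relative to TNFα was 1.97 (standard error 0.380). TFAP2C, a luminal AP-2 factor, rose by 2.67 in E2 relative to vehicle. Of the 8, 3 rose past the thresholds in E2 relative to vehicle (ELF3, OVOL2 and TFAP2C, beside 9.87% of all genes higher), 2 in TNFα relative to vehicle (ELF3 and OVOL2, beside 6.64%) and the same pair in E2+ TNFα relative to TNFα (beside 3.55%), and 0 fell. OVOL2 met the filter only in the E2 and E2+ TNFα libraries, at 1.16 to 2.35 RPKM against 0.419 or less in the others. The direction of its rises with E2 thus followed from the filter. At an adjusted p of at most 0.1, without regard to size, 4 were higher and 2 lower in E2 relative to vehicle, beside 40.1% and 41.7% of all genes. In TNFα relative to vehicle 5 were higher and 1 lower, beside 40.3% and 41.6%. In E2+ TNFα relative to TNFα 5 were higher and 2 lower, beside 24.4% and 21.0%. The 2 lower ones in the last comparison were GATA3, a luminal factor, at 13.0 ± 1.38 CPM in TNFα and 5.63 ± 1.03 in E2+ TNFα, and TFAP2A, an AP-2 factor (-0.98).

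Of 22 EMT transcription factors, 13 were tested, ZEB1, SNAI1 and SNAI2 among them. Past the thresholds, 2 rose and 1 fell in E2+ TNFα relative to TNFα, beside 3.55% and 2.01% of all genes (median 0.36, against 0.04 for all genes). These were FOXC1 at 1.61 (standard error 0.146), SOX4 just inside the size threshold, and RUNX2, the osteoblast factor, at -1.68 (0.244). FOXC1 was at 1.47 without TNFα replicate 1. SOX4 was past the thresholds in 5 of 12 fits that left out 1 library, and it was lost without any 1 of the vehicle libraries, TNFα replicate 1 (1.25), E2 replicate 2 or 3, or E2+ TNFα replicate 1. In E2 relative to vehicle 2 rose (SOX4 by 1.86 and FOXC1 by 1.63) and 2 fell (ZEB1 and RUNX2, the latter by 1.87), beside 9.87% and 20.6% of all genes. With GC and length trends removed, FOXC1 was at 1.07 and RUNX2 at -1.15, under the size threshold. In TNFα relative to vehicle FOSL1, an AP-1 subunit, rose by 1.65, or 0.82 with the trends removed, and ZEB1 fell.

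Of 41 mesenchymal cytoskeleton, adhesion and secreted genes, 28 were tested, with CDH2, FN1 and VIM among them. Past the thresholds, 3 rose and 1 fell in E2+ TNFα relative to TNFα, beside 3.55% and 2.01% of all genes. At an adjusted p of at most 0.1 9 were higher and 9 lower, beside 24.4% and 21.0%. The median of the list was 0.06, against 0.04 for all genes. CDH2, FN1 and LOX (2.33, standard error 0.151), which encodes the collagen cross-linking enzyme lysyl oxidase, rose, and PDGFRB, a growth factor receptor, fell by 1.76 (0.185). In TNFα relative to vehicle 1 rose and 5 fell, a share of the list near the 6.64% and 20.0% of all genes, among them LOX by 3.42 and FSTL1, a secreted glycoprotein, by 2.58. In E2 relative to vehicle 1 rose and 7 fell, beside 9.87% and 20.6% of all genes, with a median of -0.16 against -0.02. With GC and length trends removed 1 rose and 4 fell, beside 820 and 749 of all 11303 genes, and the median of the list was -0.71. Among those that fell was CALD1, an actin-binding protein, which fell by 2.52, or by 1.15 with GC and length trends removed. The gene that rose was MYL9, a myosin light chain, by 2.28, or 1.13 with the trends removed. CNN1, which encodes calponin, had 104 to 140 counts in vehicle and at most 6 in any treated library.

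**Figure D4:**
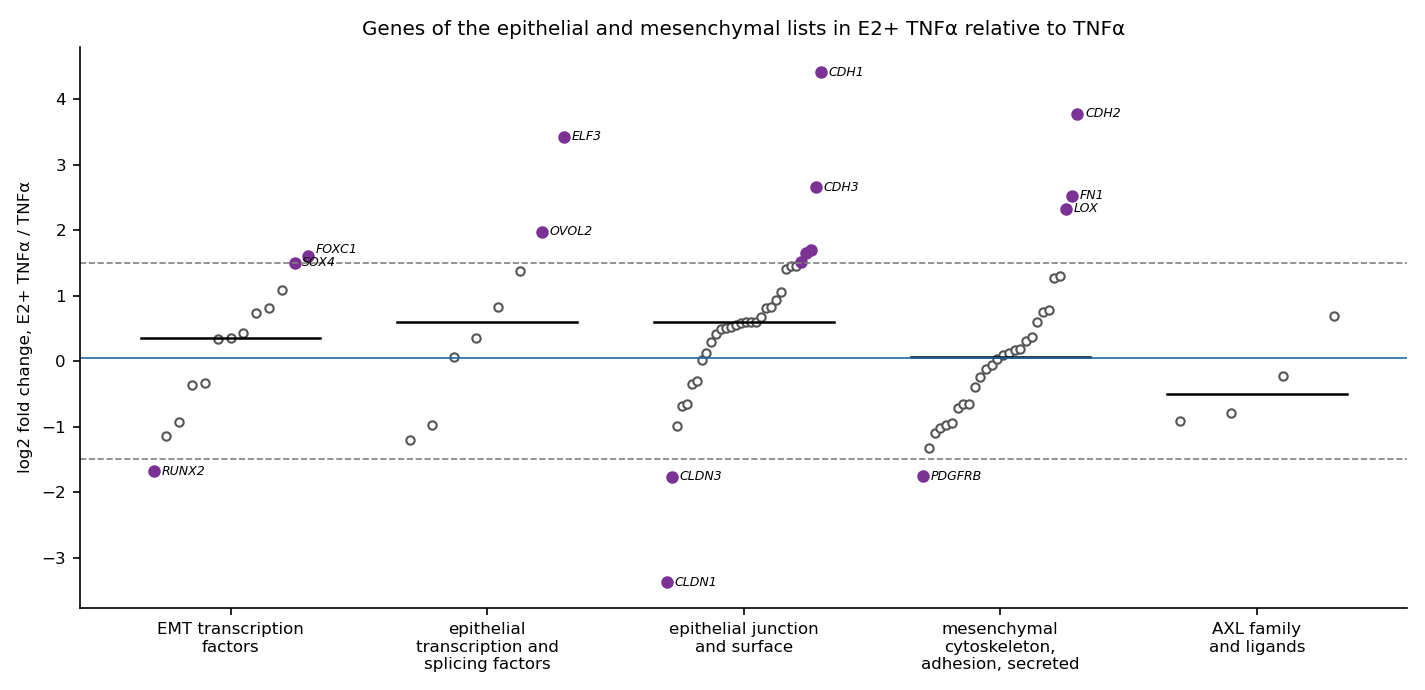
Log2 fold change in E2+ TNFα relative to TNFα of the tested genes of 5 lists, in rank order within each list, filled past the thresholds (dashed lines at 1.5 and -1.5), with a black line at the median of each list and a blue line at that of all genes (0.04). CDH1 (4.41) and CDH2 (3.78) are the highest of the epithelial junction and the mesenchymal list.

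Of the AXL family and its ligands, 4 of 5 genes were tested. GAS6, the ligand of AXL, was at 31.4 ± 3.56 CPM in vehicle, 67.4 ± 4.06 in TNFα, 101.5 ± 25.4 in E2 and 109 ± 24.6 in E2+ TNFα. It rose by 1.69 in E2 relative to vehicle, but by 0.67 with GC and length trends removed and 0.30 with RUV (adjusted p = 0.516), and by 0.69 in E2+ TNFα relative to TNFα (standard error 0.178). TYRO3, a related receptor, was lower in E2+ TNFα than in TNFα by 0.92 (0.155). MERTK, the other receptor, fell by 2.31 in E2 relative to vehicle (0.508), on 1 to 28 counts per E2 library, and with RUV the value was -1.22 with an adjusted p of 0.541. MERTK met the filter only in the vehicle libraries, at 1.02 to 1.28 RPKM against 0.976 or less in the others. The direction of its fall thus followed from the filter. PROS1, the remaining ligand, was not tested and was at 0.156 to 4.28 CPM in all libraries.

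**Figure D5:**
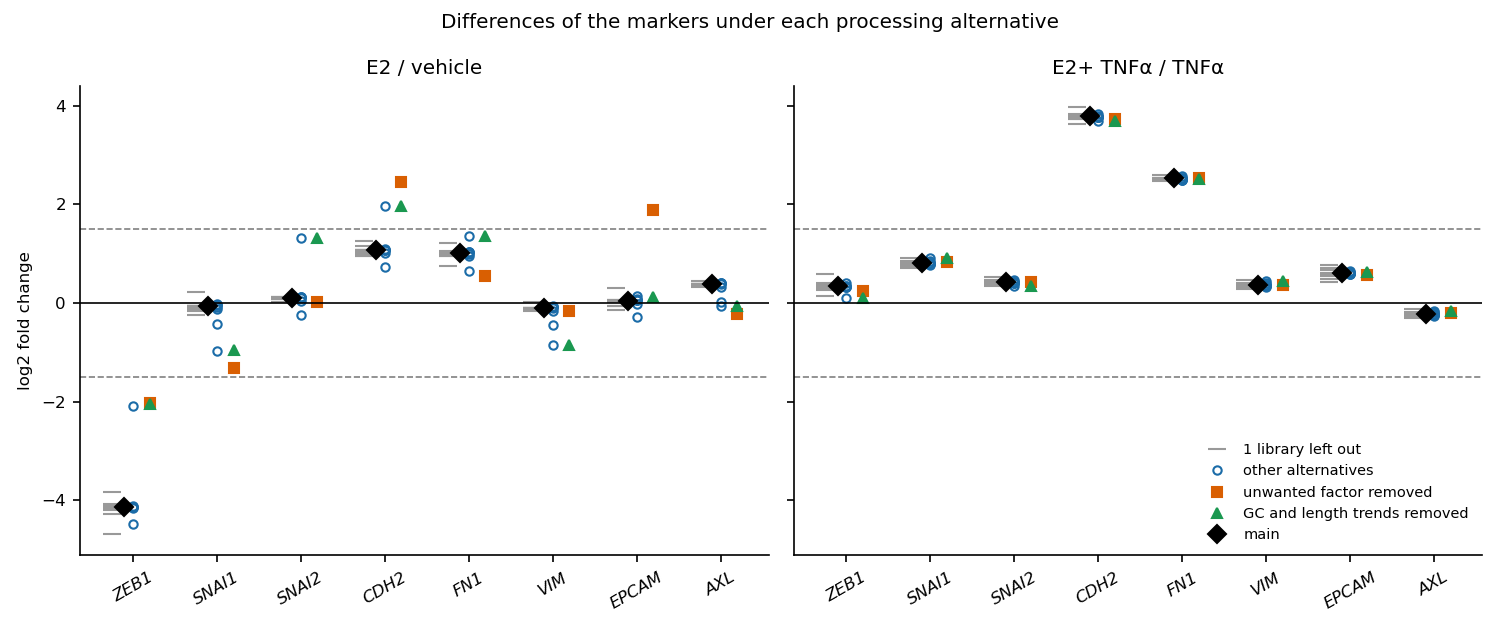
Log2 fold change of the 8 markers in E2 relative to vehicle and in E2+ TNFα relative to TNFα, under the reported processing (diamonds), with 1 library left out (bars), with an unwanted factor removed (squares), with GC and length trends removed (triangles) and under the other alternatives (circles). In E2 relative to vehicle ZEB1 lies between -4.68 and -2.02 and SNAI1, SNAI2, EPCAM, VIM and AXL cross 0, whereas in E2+ TNFα relative to TNFα CDH2 keeps between 3.63 and 3.97 and FN1 between 2.46 and 2.59.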

How the data were processed

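RNA-seq counts of 12 libraries were used. The deposited counts are whole numbers of reads per gene, which the authors obtained with featureCounts after mapping to hg38 (TopHat2 2.1.0 per the submitters' processing notes), from stranded mRNA libraries. Whether strand was used in counting is not given in the sources used here. Of the entries, 46 that repeated another exactly and 70 that had the position and counts of a different symbol were dropped. RPKM was computed from counts, TMM-scaled library size and exon length, and genes at 1 RPKM or more in at least 3 libraries were tested in one fit of 4 group means with edgeR 4.0.16 (glmQLFit, glmQLFTest) in R 4.3.3, at the thresholds of the study. The correction with RUVseq that the study describes was not part of this fit, since its batches and genes are not given in the sources used here. Alternatives were DESeq2 1.42.0 and its size factors, library size only, no filter, at least 10 counts in every library, a replicate block, RUV (1 factor from 20 housekeeping genes), loess trends with GC content and length removed (span 0.3), and each library left out. Leaving out the vehicle libraries was added after seeing the data. The fits were tested on simulated data. Markers, lists and the trend removal were chosen with earlier results of these data known. Named genes were all markers, up to 4 genes with the largest changes past the thresholds per list and comparison, and the gene closest in pattern to each marker. Results of some genes that this rule names are not reported here. TYRO3 and PROS1 were named after their values were seen. Copies were sought with blastn 2.17.0 among GENCODE transcripts (at least 200 bases at 90% identity).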

Additional observations from a re-analysis of the deposited data

Results flagged for a closer look

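For 6 markers, the E2 difference with TNFα (E2+ TNFα relative to TNFα) and that without it (E2 relative to vehicle) differed by the test of the interaction in edgeR, at an adjusted p of at most 0.1. The difference of differences, on the log2 scale, was 4.49 for ZEB1, 2.72 for CDH2, 1.52 for FN1, 0.87 for SNAI1, 0.46 for VIM and -0.61 for AXL. In all 6 the vehicle libraries set the E2 difference without TNFα, and a batch of those libraries cannot be told apart from the condition. ZEB1 was already low with TNFα alone (1.92 to 2.28 CPM), and the part of this in its value was not tested. With GC and length trends removed, the values were 2.14 for ZEB1, 1.72 for CDH2, 1.17 for FN1, 1.88 for SNAI1, 1.29 for VIM and -0.11 for AXL (adjusted p = 0.342). With RUV they were 2.27, 1.29 (adjusted p = 0.103), 1.99, 2.14, 0.53 (adjusted p = 0.282) and 0.02 (adjusted p = 0.973).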

How the results depend on the processing

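For E2+ TNFα against TNFα and against E2, every alternative and every fit without 1 library left the number of markers past the thresholds at 2 and 0. Relative to vehicle, the number past the thresholds moved from 1 to 0 in E2, from 2 to 1 in TNFα and from 1 to 0 in E2+ TNFα with at least 10 counts in every library, because ZEB1, at 3 counts in 1 E2 library, was then not tested. With RUV the numbers were 3, 4 and 2, beside 1856, 1398 and 1541 of all 11303 genes. With GC and length trends removed, also with the replicate block, 2 passed for E2 (ZEB1 and CDH2) and 3 for TNFα (SNAI1, ZEB1 and CDH2). For E2+ TNFα 1 then passed, which was CDH2, higher, in place of ZEB1. Of all genes, 1569, 1187 and 1232 passed with the trends removed, or 1563, 1196 and 1245 with the block added. Under the reported processing, 3447, 3016 and 2837 of all genes passed. Interactions turned to the opposite sign for SNAI2 with the trends removed (-0.98, and -0.98 with the block added, against 0.32), for EPCAM with RUV (-1.31, against 0.56) and for AXL with RUV (0.017, against -0.61). With library size only, the median of all genes in E2 relative to vehicle shifted to -0.38, so that SNAI2 (-0.25) and EPCAM (-0.29) were above that median. With the replicate block the 48 values kept their direction and call (CDH2 3.78 and FN1 2.53 in E2+ TNFα relative to TNFα). Replicate numbers gave no clear sign of pairing, with 5 of 18 same-numbered pairs correlated above 0.1 (range -0.48 to 0.47, others -0.55 to 0.65). These are correlations of deviations from means of 3 libraries, which cannot exclude a pairing. Leaving out 1 library moved no value across the thresholds in the 5 comparisons. It took 3 interaction fits of SNAI2 and 3 of EPCAM to an adjusted p of at most 0.1, and it turned the sign of small differences that did not pass, relative to vehicle SNAI1 (0.22), EPCAM (down to -0.15) and VIM (0.017) in E2 and VIM (0.041) in E2+ TNFα, and relative to E2 VIM, CDH2 and AXL. At the adjusted p alone, it took EPCAM and VIM out of the 6 markers that were higher in E2+ TNFα than in TNFα, which left 4 to 6, and it brought AXL, lower, to an adjusted p of at most 0.1 in 4 of 12 fits. Depth limits genes on few reads, such as ZEB1 with 3 to 28 in E2.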
